A study of Mus musculus with 108 samples.

Results

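The hippocampus (HIP) of mouse embryos at stage E17.5, late in gestation, was compared between Cul3+/- mutants and wild-type (WT) embryos in 12 of the 108 RNA-seq libraries of the series, 6 from WT and 6 from mutant embryos. The members are the libraries whose titles name this region, age and genotype, and all 12 were used. All embryos had the strain background given in the labels as C56Bl/6N. The mutants carried 1 disrupted copy of Cul3 in every cell, made by CRISPR/Cas9 in the germline, and descended from a single founder with a frame-shifting insertion, so they stand for 1 allele. WT embryos carried no mutation. The tissue was whole hippocampus, and in such bulk libraries fewer cells of a type and less RNA per cell cannot be told apart. Cortex (CX) and cerebellum (CB) libraries of the same 12 embryos were used only for comparison.

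Cul3 is the scaffold of a family of ubiquitin ligases: it holds the RING protein Rbx1 at one end and, at the other, adaptor proteins with a BTB domain that choose the substrate. Its known substrates include the small GTPase RhoA, which controls actin contractility and neurite growth, and Nrf2, the transcription factor of the oxidative stress response that the adaptor Keap1 presents to the ligase. In the late embryonic hippocampus, radial glia and Eomes-positive intermediate progenitors are still dividing, pyramidal neurons of the Ammon's horn are maturing, granule neurons of the dentate gyrus have only begun to form, and synapses are few. The choroid plexus, the meninges and blood vessels adjoin the hippocampus, so that dissected tissue may hold their RNA.

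The sequence that the guide RNA targeted is shown because it places the lesion in the gene. On the transcript strand, 5′ to 3′, with the protospacer-adjacent motif in capitals, it reads:
Cul3 guide target: ggattaatgaggaaatagagCGG
In GRCm38 it lies at chr1:80287041-80287063 on the minus strand, in exon 6 of the 16 exons of the transcript Cul3-201, where it covers codons 240 to 247 of 768 in the coding sequence. The gene Cul3 (ENSMUSG00000004364) spans chr1:80264923-80340480. The site is within the protein-coding part and not in a UTR.

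Cul3 itself was examined first, since it checks the labels. Levels are given in CPM, the estimated reads of a gene per 1000000 reads of its library after scaling by TMM, a method that evens out composition differences. Cul3 stood at 213, 213, 215, 206, 210 and 187 CPM in WT replicates 1 to 6, and at 122, 109, 128, 121, 112 and 113 CPM in mutant replicates 1 to 6. The genotypes did not overlap: the lowest WT library lay well above the highest mutant library. The means were 207 ± 10.4 CPM in WT and 117 ± 7.19 CPM in mutants (SD, n = 6 each), so that mutants had 56.6% of the WT level. Cul3 fell by 0.82 on the log2 scale (SE 0.060, 95% interval -0.95 to -0.69, adjusted p = 7.55e-05 by edgeR's quasi-likelihood test), and the exact two-sided permutation test gave p = 0.00216, the smallest that 6 against 6 allows. None of the 9 tested genes within 1 Mb of Cul3 passed even an unadjusted p of 0.05 (lowest p 0.078, log2 fold changes -0.29 to 0.37).

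**Figure D1:**
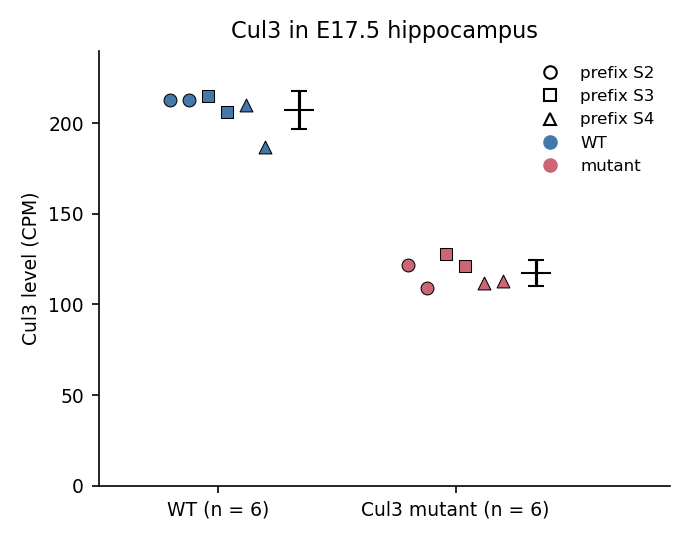
Cul3 level in each E17.5 hippocampus library in CPM (vertical axis, from 0), by genotype. Points are embryos, shapes the prefix of the mouse name, and the bars beside them the mean ± SD. The 6 WT libraries lie between 187 and 215 CPM and the 6 mutant libraries between 109 and 128 CPM.

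The libraries were then compared with each other. Totals ranged from 24811335 to 32356968 estimated reads, except in WT replicates 1 and 4, which had 15126114 and 15264678. The mouse names in the labels carry a prefix, S2, S3 or S4, with 2 WT and 2 mutant embryos under each, and the labels do not say what it stands for. The prefix separated the libraries more than genotype did: a term for it passed a false discovery rate (FDR) of 0.1 for 5265 of 17061 genes tested (30.9%), against 1 gene (0.00586%) for genotype. In a principal component analysis of log2 CPM, the first component, 39.3% of the variance, placed the 4 S3 libraries between 27.3 and 59.7 and all 8 others at or below -4.58. Along the second component, 18.2% of the variance, WT replicate 2 stood farthest out at -49.

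**Figure D2:**
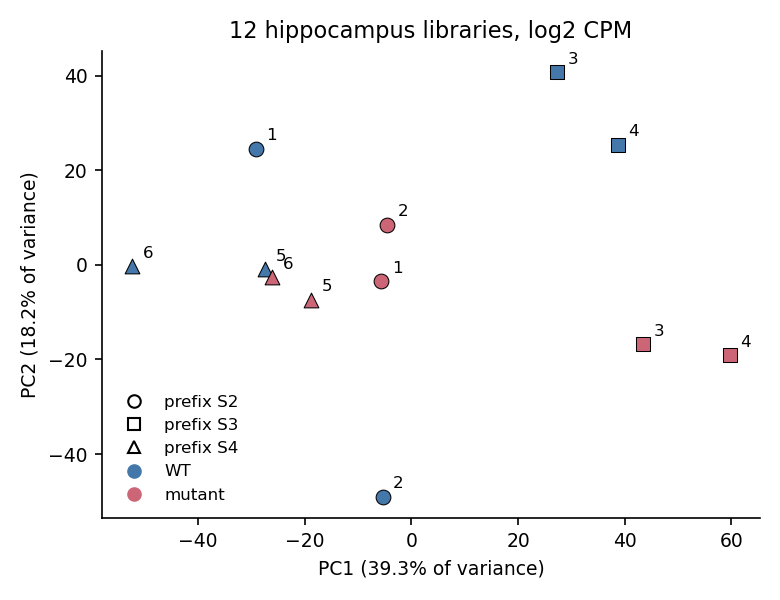
First (horizontal) and second (vertical) principal components of log2 CPM for the 12 hippocampus libraries, with their share of the variance. Colour marks genotype, shape the name prefix, and numbers the replicate. The 4 prefix S3 libraries lie at the right, and WT replicate 2 lies alone at the bottom.

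The S3 libraries had more RNA of dividing cells and less of synapses, in both genotypes. Summed over 75 cell cycle genes, they held 4650 to 5380 CPM against 2780 to 3660 CPM in the others. The prefix term passed an FDR of 0.1 for 69 of the 75, all with S3 above the mean of S2 and S4. Summed over 52 genes of the excitatory synapse, they held 2900 to 4150 CPM against 4650 to 7670 CPM. There the term passed for 45, with S3 lower in 42 and higher in 3. Over all 17061 genes it passed with S3 higher in 2562 and lower in 2703. Both prefix S3 WT embryos expressed Xist, the female marker, and both prefix S3 mutants Ddx3y, a Y-linked gene, so that within S3 sex and genotype cannot be told apart. Over all libraries, 4 WT and 3 mutant embryos expressed Xist. The comparison below was therefore made in 2 ways: with genotype alone, the main test, and with the prefix as a block, which compares mutants with WT of the same prefix.

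Single libraries also held RNA of neighbouring tissue. Genes of the choroid plexus, the tissue that secretes cerebrospinal fluid, summed to 6240 CPM in WT replicate 2, to 139 to 385 CPM in the other WT libraries and to 177 to 610 CPM in mutants. Its defining marker Ttr, the thyroxine carrier, stood at 22, 5000, 2.81, 3.99, 27.9 and 127 CPM in WT replicates 1 to 6 and at 198, 19.5, 343, 74.2, 82.8 and 61 CPM in mutant replicates 1 to 6. A single WT library thus held a level far above all others, while the rest of both genotypes overlapped. Genes of blood took 0.0981% to 0.172% of the counts in WT and 0.119% to 0.197% in mutants, also overlapping. Hippocampal markers were present in all 12, with Zbtb20, a transcription factor of hippocampal fate, at 757 to 1850 CPM in WT and 517 to 1400 CPM in mutants, while the cerebellar markers En1, En2 and Pax2 were too low to be tested.

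**Figure D3:**
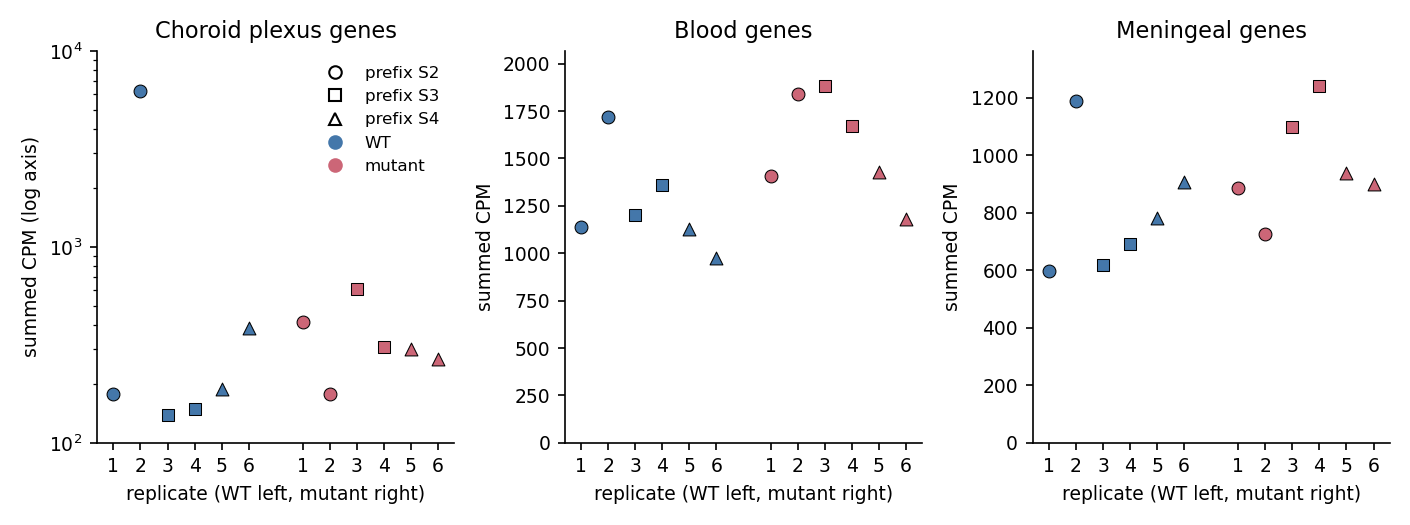
Summed CPM of the choroid plexus genes (left, log axis), the blood genes (middle) and the meningeal genes (right) in each hippocampus library, with WT replicates 1 to 6 to the left and mutant replicates 1 to 6 to the right in each panel. WT replicate 2 reaches 6240 CPM of choroid plexus genes, and mutant replicates 3 and 4 have the highest sums of meningeal genes, 1100 and 1240 CPM, with WT replicate 2 at 1190 CPM.

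Across the transcriptome, Cul3 was the only gene called at an FDR of 0.1, with genotype alone and with the prefix block. By unadjusted p under 0.05, used here only as a background, genotype alone gave 391 genes (2.29%), 224 higher (1.31%) and 167 lower (0.979%) in mutants. With upper-quartile scaling that split was 281 and 118, and with DESeq2 it was 224 and 249. The prefix block gave 1558 genes (9.13%), 678 higher (3.97%) and 880 lower (5.16%), and with upper-quartile scaling 844 and 720. Leaving out WT replicate 2 raised the count with genotype alone to 1149, and leaving out mutant replicate 3 lowered it to 196.

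Beside Cul3, no gene had an adjusted p below 0.941 with genotype alone, so the genes with the smallest p are given only as a ranking. Mmrn1, a multimerin of endothelial cells and platelets, came first among those higher in mutants, at 0.943, 3.49, 1.77, 1.40, 2.23 and 2.53 CPM in WT and 4.91, 2.99, 7.02, 7.70, 3.91 and 3.11 CPM in mutants (log2 fold change 1.23, SE 0.32, unadjusted p = 0.00214). The ranges overlapped through WT replicate 2. The basement membrane genes Col4a6 (0.68, SE 0.21) and Lama1 (0.67, SE 0.22) were also among the 10, and 5 of the 10 were TEC models, annotated transcripts that still await experimental proof. Among those lower, Slc31a1, the copper importer, stood at 35.2 to 45.9 CPM in WT and 32.5 to 36.5 CPM in mutants (-0.24, SE 0.070). Ing2, a chromatin reader, stood at 6.37 to 8.28 and 4.89 to 6.67 CPM (-0.36, SE 0.11), and Pdgfc, a growth factor, at 5.01 to 8.02 and 3.37 to 5.92 CPM (-0.48, SE 0.15).

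In only 10 of the 17061 genes (0.0586%) did the 6 mutant and 6 WT libraries not overlap, 6 of them higher (0.0352%) and 4 lower (0.0234%) in mutants. Cul3 was 1 of the 4. The others lower were Gcnt1, a glycosyltransferase (-0.42), Mcph1, a microcephaly gene of chromosome condensation (-0.17), and Hs6st1, a heparan sulfate sulfotransferase (-0.12). The higher ones were Slc25a27 (0.13), Invs (0.13), Mterf1b (0.25), Gm14421 (0.32), Gm43545 (0.75) and Gm35842 (0.86). None of these beside Cul3 passed the FDR.

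The Cul3 ligase and its pathways were examined as lists. Of 25 genes of the ligase core, which comprises Cul3, Rbx1, the Nedd8 conjugation machinery and the COP9 signalosome that removes Nedd8, Cul3 alone passed an unadjusted p of 0.05, and the median log2 fold change of the list was 0.01. Rbx1 stood at 87.9 to 127 CPM in WT and 108 to 125 CPM in mutants. None of the 7 other cullins passed, with a median of -0.01. Of 57 BTB adaptors, 0 passed with genotype alone and 4 were lower with the prefix block, against a background of 5.16%: Klhl3, Klhl26, Kctd7 and Klhl32. Klhl3, the adaptor for WNK kinases, stood at 8.59 to 19.4 CPM in WT and 6.32 to 13.1 CPM in mutants (prefix block -0.40, SE 0.098, adjusted p = 0.502 by edgeR).

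With genotype alone, transcripts of RhoA and of the actin cytoskeleton differed little between mutants and WT. Rhoa stood at 145, 148, 132, 164, 139 and 146 CPM in WT and 147, 126, 151, 151, 140 and 140 CPM in mutants, which overlapped (log2 fold change -0.03, 95% interval -0.17 to 0.11). Pls3, the actin bundler plastin 3, stood at 35.1 to 57.8 and 37 to 50.6 CPM (-0.10, 95% interval -0.37 to 0.18). Of 59 genes of the list, 2 were higher by unadjusted p with genotype alone, against a background of 1.31%: Myh9, non-muscle myosin heavy chain (0.18, SE 0.068), and Lcp1, a leukocyte plastin (0.29, SE 0.13). With the prefix block 3 of the 59 were higher, against 3.97%, and 2 lower, against 5.16%. Of 25 tested Nrf2 targets, 0 passed with genotype alone and 1, Me1, was lower by unadjusted p with the prefix block, against 5.16%. Keap1 differed by 0.01 (SE 0.071). The quinone reductase Nqo1, a classical Nrf2 target, was at 8.65 CPM in WT replicate 2, the library with choroid plexus RNA, and at 0.270 to 1.08 CPM in the 11 others.

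The mean level of the cell cycle list was higher in mutants than in WT within every prefix, while no single member passed the FDR in either fit of the 12 libraries. With genotype alone, 66 of 75 cell cycle genes had a higher mean in mutants (median log2 fold change 0.19 against 0.00 over all genes), and none passed an unadjusted p of 0.05. With the prefix block, 47 of the 75 were higher and 0 lower by unadjusted p, against a background of 3.97%, again with a median of 0.19, and none passed the FDR. The mean log2 CPM of the list was higher in mutants by 0.21 in S2, 0.15 in S3 and 0.15 in S4, and in none of the 3 did the mutant and WT embryos overlap. Without the 4 S3 embryos and with genotype alone, 11 of the 75 were higher by unadjusted p, against a background of 0.962%, with a median of 0.18. The list was not tested as such, since its genes are expressed in the same cells and are not independent.

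The same pattern stood in single cell cycle genes. Top2a, the topoisomerase that unlinks chromosomes in mitosis, stood at 216 and 240 CPM in WT and 290 and 269 CPM in mutants of S2, at 362 and 338 against 457 and 441 CPM in S3, and at 195 and 188 against 233 and 219 CPM in S4. Mutants were above WT in each prefix, although S3 WT embryos were above the mutants of S2 and S4. The log2 fold change was 0.31 (SE 0.23, unadjusted p = 0.192) with genotype alone and 0.30 (SE 0.053, unadjusted p = 0.000135, adjusted p = 0.461) with the block. Mki67, the proliferation marker Ki-67, was higher by 0.22, 0.28 and 0.22 in S2, S3 and S4 (block 0.24, SE 0.088). Genes of DNA replication were among those with the smallest p in the block: Mcm3, a subunit of the replicative helicase (0.27, SE 0.052), Cdc6, which loads that helicase (0.36, SE 0.070), and Brca1, a repair factor (0.31, SE 0.058). Not all members had a higher mean, and with the block 7 of the 75 were lower. Ccnd2, the cyclin D of cortical progenitors, was at -0.10, which is less than its error (SE 0.17).

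Histone genes and genes that mark progenitor types gave mixed values. Of 64 tested histone genes of the replication-dependent clusters, whose transcripts lack a poly(A) tail and are kept by the ribosomal RNA depletion used here, 60 had a higher mean with genotype alone, 0 at an unadjusted p under 0.05, and 15 were higher by unadjusted p with the block, against a background of 3.97% (medians 0.28 and 0.24). Their list mean was higher in mutants in S2 by 0.39 and in S3 by 0.35 but lower in S4 by 0.14 (-0.14). Of 20 intermediate progenitor genes, 5 were higher by unadjusted p with the block, against the same 3.97%, among them Neurog2, a proneural factor (0.22, SE 0.069), while Eomes itself gave 0.49 in S2, -0.20 in S3 and 0.34 in S4 (block 0.21, SE 0.11). Of 39 radial glia genes, 3 were higher in that way, 7.69% against 3.97%, among them Hes1, the Notch effector (0.28, SE 0.071). Pax6, the radial glial transcription factor, stood at 32.4 to 73.6 CPM in WT and 33.2 to 75.5 CPM in mutants (block 0.07, SE 0.066).

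Most genes of the excitatory synapse had a lower mean in mutants, and no member passed the FDR in either fit. With genotype alone, 48 of 52 had a lower mean in mutants (median -0.27) and 2 were lower by unadjusted p, against a background of 0.979%, Syn1 and Grik5. With the prefix block, 27 of 52 were lower and 0 higher by unadjusted p, against a background of 5.16% (median -0.30). Within prefixes the list mean was lower by 0.12 in S2, 0.46 in S3 and 0.29 in S4 (values -0.12, -0.46 and -0.29), and only in S3 did the genotypes not overlap. Many other lists, such as the ligase core and the genes of hypoxia and glycolysis, also did not overlap in S3. Without the 4 S3 embryos and with genotype alone, 1 of the 52 was lower by unadjusted p, against a background of 2.15%, with a median of -0.22. With 5 RUVs factors, 31 of 52 had a lower mean, with a median of -0.04.

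Grm5, the metabotropic glutamate receptor mGluR5, had the smallest p of these genes in the block. It stood at 130 and 124 CPM in WT against 103 and 101 CPM in mutants of S2, at 60.1 and 43.9 against 43.4 and 39.8 CPM in S3, and at 189 and 219 against 138 and 134 CPM in S4. Mutants were below WT in each prefix (block -0.41, SE 0.082, unadjusted p = 0.000352, adjusted p = 0.462). The NMDA receptor subunit gene Grin2a differed by -0.33, -0.83 and -0.31 in S2, S3 and S4 (block -0.47, SE 0.12). Syn1, the synaptic vesicle protein synapsin 1, stood at 45.6, 6.61, 22.7, 11.5, 15.5 and 65 CPM in WT and 12.4, 14.5, 5.40, 3.89, 16.3 and 16 CPM in mutants. Its WT mean rested on replicates 1 and 6, and WT replicate 2 was below 4 of the 6 mutants. Abundant members differed less, with Gria2 at 0.00 (SE 0.095) and Camk2b at -0.17 (SE 0.079) in the block.

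WT replicates 1 and 6 also stood apart in other neuronal and mitochondrial transcripts. Dcx, the microtubule protein of young neurons, stood at 1760 and 1680 CPM in these and at 836 to 972 CPM in the other 4 WT libraries, against 650 to 1160 CPM in mutants. The mitochondrial gene mt-Nd5 stood at 303 and 344 CPM in them and at 68.5 to 101 CPM in the 10 other libraries (log2 fold change -0.93, SE 0.41, unadjusted p = 0.0405 with genotype alone). Their part in the lower synaptic values of mutants was not tested. Leaving out WT replicates 1 and 4 makes WT replicate 2, with its choroid plexus RNA, the only WT embryo of S2. WT replicate 3 is then the only WT embryo of S3. Without WT replicates 1 and 4, the 2 libraries of lowest depth, the block gave 9 of 52 synapse genes lower and 1 higher by unadjusted p, against a background of 3.54% lower, and 34 of 75 cell cycle genes higher, against 2.43%.

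**Figure D4:**
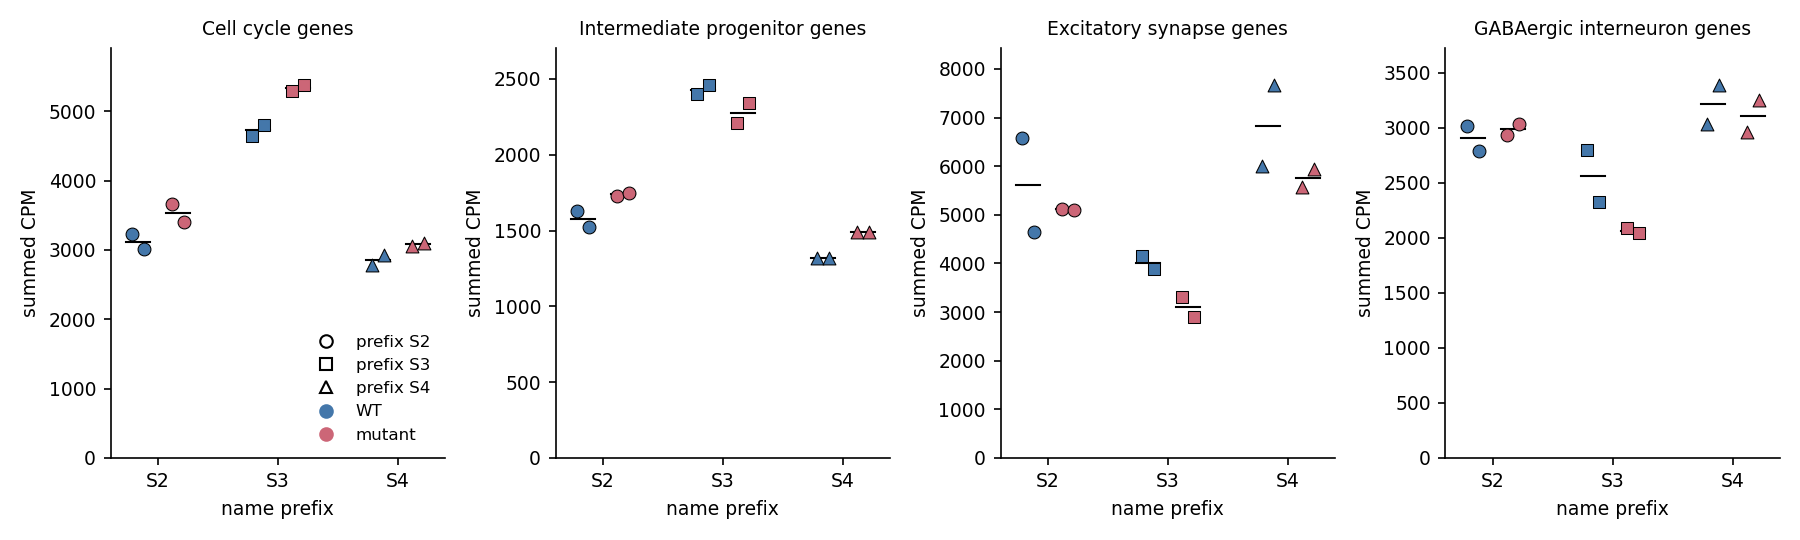
Summed CPM (vertical axes, from 0) of the cell cycle, intermediate progenitor, excitatory synapse and GABAergic interneuron genes in each hippocampus library, by name prefix. Points are embryos, blue WT and red mutant, and horizontal lines the mean of the 2 embryos. In each prefix both mutants lie above both WT embryos for cell cycle genes, whose sums run from 2780 to 5380 CPM, and prefix S3 lies apart from the others in the cell cycle, intermediate progenitor and synapse panels.

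The other neuronal lists are read against the same backgrounds, 0.979% lower with genotype alone and 5.16% lower with the block. None of their members passed the FDR in either of these fits. Of 34 tested genes of GABAergic interneurons, 31 had a lower mean in mutants (median -0.24), with 0 by unadjusted p, and 4 (11.8%) were lower by unadjusted p with the block: Slc32a1, the vesicular GABA transporter, and the transcription factors Maf, Dlx1 and Dlx2. Gad1, the GABA-synthesizing enzyme, stood at 117 CPM in WT replicate 6 and at 19.6 to 57 CPM in the other WT libraries, against 13.6 to 53.2 CPM in mutants. Of 60 tested genes of neurite growth and guidance, 7 (11.7%) were lower by unadjusted p with the block (median -0.14), among them Nefl, the light neurofilament (-0.70, SE 0.18). Of 39 genes of hippocampal field patterning, 34 had a lower mean (median -0.16), and 3 were lower by unadjusted p with genotype alone, among them Nts. Nts, neurotensin, was at 15.5 and 37.5 CPM in WT replicates 1 and 5 and at 0.0666 to 2.33 CPM in the 10 other libraries, so that its value of -2.72 (SE 1.0) rested on 2 libraries. Of 24 tested genes of the granule neuron lineage, 0 passed with genotype alone (median -0.03), and Prox1, its transcription factor, stood at 71.3 to 211 CPM in WT and 49.5 to 152 CPM in mutants. Of 34 Cajal-Retzius and cortical hem genes 0 passed with genotype alone (median 0.03), and Reln, the signal these cells secrete, differed by -0.02 (SE 0.18). With the block, 3 of the 34 were higher by unadjusted p, against a background of 3.97%, and 2 lower, against 5.16%. With genotype alone, cytosolic ribosomal protein genes had a higher mean in mutants in 75 of 77 (median 0.17), and 0 passed.

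With genotype alone, choroid plexus and ependymal genes had lower means in mutants, and for choroid plexus genes that direction rested on WT replicate 2. Of 30 tested choroid plexus genes, 27 had a lower mean and 5 were lower by unadjusted p, against a background of 0.979% (median -1.11): Tmem72, Aqp1, Slc4a5, Cldn2 and Car12. Aqp1, the water channel of the plexus, stood at 111 CPM in WT replicate 2 and at 0.466 to 3.95 CPM in the other WT libraries, against 1.33 to 4.48 CPM in mutants. Without WT replicate 2 the direction of the list turned: 24 of 30 had a higher mean in mutants, 6 by unadjusted p against a background of 2.42%, with a median of 0.40. Of 62 tested genes of ependyma and motile cilia, 61 had a lower mean and 4 were lower by unadjusted p, against 0.979% (median -0.56). Their sums were highest in WT replicates 2 and 6, at 946 and 819 CPM, and ran from 378 to 517 CPM in the other WT libraries and from 403 to 598 CPM in mutants. Without WT replicate 2 and with genotype alone, 51 of the 62 still had a lower mean (median -0.18), 2 by unadjusted p against a background of 4.27%. With the prefix block, 4 of the 62 were lower by unadjusted p, against 5.16%. In the block without WT replicate 2, 36 had a lower and 26 a higher mean (median -0.06). The ependymal list mean differed by -0.87 in S2, 0.35 in S3 and -0.39 in S4, and only in S3 did the genotypes not overlap. Without the 4 S3 embryos, which leaves WT replicate 2 among 4 WT libraries, 15 of 32 choroid plexus genes were lower by unadjusted p, against a background of 2.15%, and 0 passed the FDR.

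Meningeal and vessel genes had higher means in mutants, mainly in prefix S3. With genotype alone, 3 of 41 tested meningeal genes (median 0.50) and 3 of 37 collagen and basement membrane genes (median 0.19) were higher by unadjusted p, against a background of 1.31%, and none passed the FDR. Col3a1, the fibrillar collagen of meningeal fibroblasts, stood at 8.40 and 15.5 CPM in WT and 141 and 148 CPM in mutants of S3, while S2 and S4 held 18.1 to 110 CPM in WT and 40.4 to 100 CPM in mutants and overlapped. The list mean of meningeal genes was higher in mutants by 1.68 in S3, 0.01 in S2 and 0.21 in S4. The S2 value includes WT replicate 2, at 1190 summed CPM, against 599 CPM in WT replicate 1 and 888 and 725 CPM in the S2 mutants. Without the 4 S3 embryos, which leaves WT replicate 2 among the WT libraries, the medians were 0.01 for meningeal and 0.00 for basement membrane genes (value -0.00). That of endothelium turned from 0.18 to -0.10. Without WT replicate 2 and with genotype alone, 10 of 41 meningeal genes were higher by unadjusted p, against a background of 2.42% (median 0.65). In the block without WT replicate 2, 3 meningeal, 3 basement membrane and 3 endothelial genes were called higher, with Lama1 in the first 2 lists. Lama1, a laminin of basement membranes, was higher in all 3 prefixes, by 0.60, 1.04 and 0.20, and Col4a6 by 0.41, 1.17 and 0.34. Mrc1, the mannose receptor of border macrophages, stood at 2.12 and 3.26 CPM in S3 WT and 18.7 and 17.4 CPM in S3 mutants. The microglial markers Cx3cr1 (0.06, SE 0.13) and P2ry12 (0.07, SE 0.17) differed by less than their errors.

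Of 16 tested blood and erythroid genes, 10 had a higher and 6 a lower mean in mutants (median 0.26). With genotype alone 3 were higher by unadjusted p, against a background of 1.31%, all globin genes, and with the block 5 were higher, against 3.97%, and 1, Sptb, a spectrin of red cells, was lower. None passed the FDR in either of these fits. Without the 4 S3 embryos, which keeps WT replicate 2, 0 of 15 passed an unadjusted p of 0.05 (median 0.09). That library had the highest blood sum in WT, 1720 CPM. In the block without it, 4 of 16 were called higher, against a background of 0.844%: Hbb-bs, Hba-a2, Hbb-bt and Hba-a1. The calls of that fit moved widely when 1 further library was left out. Hba-a1, an adult alpha globin gene, stood at 133, 210, 144, 169, 119 and 113 CPM in WT and 188, 262, 277, 224, 180 and 134 CPM in mutants, which overlapped (0.51, SE 0.19, unadjusted p = 0.0177). Its mean was higher by 0.41, 0.67 and 0.42 in S2, S3 and S4. Hba-a2 and Hbb-bs gave 0.49 (SE 0.22) and 0.48 (SE 0.22), and reads may be shared between the near-identical alpha globin copies. The embryonic beta globin Hbb-y was at 27.8 CPM in mutant replicate 4 and at 0.0346 to 3.32 CPM in all others. Whether blood content moved with other differences was not tested.

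In the same embryos, the counts for cell cycle genes were similar in CX and not in CB. With the prefix block, 51 of 75 cell cycle genes were higher in CX by unadjusted p, against a background of 3.84%, with a median of 0.19, while in CB 0 were higher and 6 lower, against 3.89% and 4.16%, with a median of -0.06. Histone genes were higher in 33 of 64 in CX and lower in 40 of 65 in CB. Synapse genes were lower in 9 of 52 in CX, against 3.35%, and in 2 of 52 in CB. Top2a gave 0.17 in CX (unadjusted p = 0.00206) and -0.04 in CB (unadjusted p = 0.575). The 3 regions come from the same embryos, so CX is no independent repeat of HIP.

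**Figure D5:**
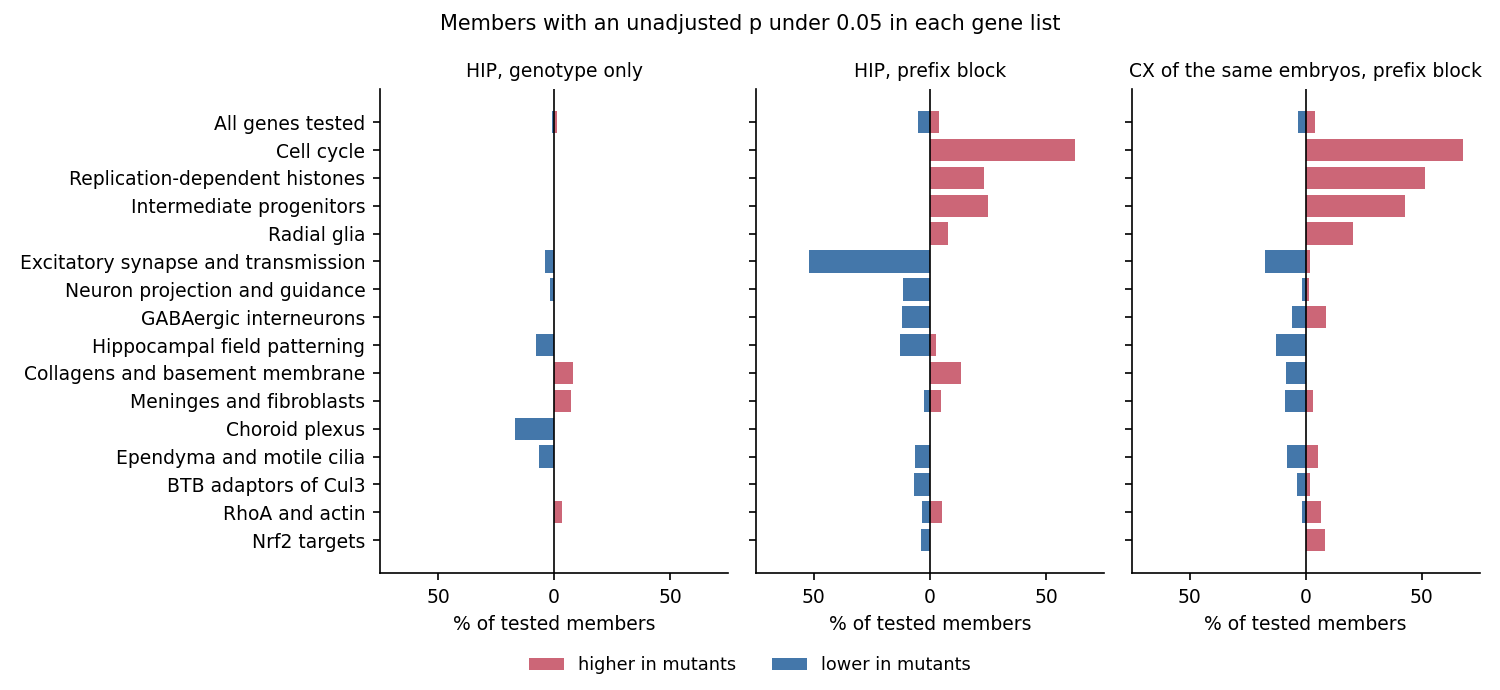
Share of tested members of each gene list (rows) with an unadjusted p under 0.05, in percent, to the right when higher and to the left when lower in mutants: hippocampus with genotype alone (left), hippocampus with the prefix block (middle) and cortex of the same embryos with the prefix block (right). The row of all genes gives the background. Cell cycle and excitatory synapse genes stand out with the prefix block, at 47 of 75 and 27 of 52 in the hippocampus, and not with genotype alone.

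Whether the mutant effect differed between regions was tested directly, in 1 fit over the 36 libraries with the embryo as a block. No gene passed an FDR of 0.1 for HIP against CX, with 592 of 18637 at an unadjusted p under 0.05 (3.18%), 359 more positive in HIP (1.93%) and 233 more negative (1.25%), and 1 called by the likelihood ratio test, or for HIP against CB, with 266 (1.43%) and 0 by that test. The loss of Cul3 itself did not differ beyond error, with HIP minus CX at -0.06 (adjusted p = 1.0 by edgeR) and HIP minus CB at -0.03 (adjusted p = 0.986 by edgeR). When the fit also let each prefix differ by region, 46 of 75 cell cycle genes had a more positive mutant effect in HIP than in CB by unadjusted p, against a background of 2.77%, as had 58 of 66 histone genes, and 17 of 52 synapse genes had a more negative one, against 3.74%. For HIP against CX the counts in the same directions were 1 and 0, against 2.4%, and 4, against 3.26%. None of these genes passed the FDR.

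The number of genes called with the prefix block depended on single libraries. Without WT replicate 2, which held the choroid plexus RNA, the block called 600 of 17181 genes (3.49%), 145 higher (0.844%) and 455 lower (2.65%) in mutants, or 340 and 428 with upper-quartile scaling. In that fit 16 of 75 cell cycle genes rose, among them Mcm3, Brca1, Top2a, Kif11, Mcm2 and Cdc6, and 22 of 52 synapse genes fell, among them Dlg2, Dlg4, Grin1, Grin2a, Grm5, Syn1, Snap25 and Camk2a. Of 59 RhoA and actin genes, 4 were called lower: Ina, Diaph1, Wasf1 and Actr2. Top2a gave 0.31 (adjusted p = 0.0853 by edgeR) and Grm5 -0.44 (adjusted p = 0.087 by edgeR). The count moved widely when 1 further library was left out. Cul3 alone was called when WT replicate 1 or 3 was the further library, and likewise for any 1 of mutants 1, 2, 4 and 5. Dropping mutant 3 left 2 genes, WT replicate 4 left 18 and WT replicate 6 left 43, while dropping mutant 6 gave 1112 and WT replicate 5 gave 3522. With Xist as a covariate, 1 gene was called. In the block with all 12 libraries, that covariate left 44 of 75 cell cycle genes higher, against a background of 3.6%, and 23 of 52 synapse genes lower, against 4.28%, by unadjusted p.

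Removing unwanted variation with RUVs, a factor analysis of replicates like the one the study describes, gave smaller list values. With 5 factors, 194 genes (1.14%) were called, 102 higher and 92 lower. Of the cell cycle genes 11 of 75 were higher by unadjusted p, against a background of 5.35%, with a median of 0.08, and 0 were called. Of the synapse genes 13 of 52 were lower, against 3.65%, with a median of -0.04, and 4 were called. Of 41 meningeal genes 11 were called, and of 37 basement membrane genes 10, all higher in mutants. These counts overlap, since the lists share called genes such as Lama1, Col3a1 and Col1a1. Among 33 microglia and macrophage genes 6 were called higher. Called lower were 7 of 62 ependymal genes and 4 of 30 choroid plexus genes. Among 59 RhoA and actin genes Wasf1 was called lower, as it was with 3 factors.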

How the data were processed

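The files hold expected counts per gene, which the authors made from paired-end, ribosomal RNA-depleted total RNA libraries by trimming with cutadapt 1.14, aligning to GRCm38.p5 (mm10) with STAR 2.5.3a and counting with RSEM 1.3, and deposited without normalization in a table of 53465 genes and 108 libraries. Reads shared by near-identical genes are split by RSEM's model. Gene names and positions are from GENCODE vM21 on GRCm38, where 53274 IDs matched. The expected counts were rounded to whole numbers and tested with the quasi-likelihood test of edgeR 4.0.16 (R 4.3.3) after filterByExpr with a minimum count of 10 and total of 15, TMM scaling and Benjamini-Hochberg adjustment, with an FDR of 0.1 as the threshold. The fit held the 12 hippocampus libraries and genotype alone. The study fitted sex and RUVs factors in edgeR. The labels used here give no sex, so log2 CPM of Xist, the prefix of the mouse name as a block, RUVs with 3 and 5 factors (own code, likelihood ratio test, upper-quartile scaling), the replicate number as a block, the likelihood ratio test, DESeq2 1.42.0, RLE and upper-quartile scaling, no filter, a choroid plexus covariate and leaving out libraries were alternatives. Fits without S3, the further settings of the prefix block and prefix terms in the region fit were added after seeing the data. Region differences were genotype-by-region terms over 36 libraries with the embryo as a block. The script was tested on simulated data.

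The libraries and gene lists were chosen with earlier results of these data known, and no list was tested as a set. Named genes were Cul3, genes called, the 10 with the smallest p in each direction with a mean of at least 1 CPM, and in each list the 3 most abundant, the 2 with the smallest p and the defining markers, together with Rhoa and Pls3. A few genes that this rule names are not reported here. Any other gene was named after its values were seen, such as Mcm3, Cdc6, Brca1, Grm5, Grin2a and Klhl3. The replicate number was not taken as a pairing, since the labels tie it to no shared litter, batch or day and not every same-numbered pair deviated together. The depth of 15126114 to 32356968 estimated reads sets the counting error. Nothing in the labels says whether embryos shared a litter, and p-values measure the spread between these embryos.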

Additional observations from a re-analysis of the deposited data

Results flagged for a closer look

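Of 118 groups of 6 libraries examined, 7 had 1 library whose gap to the nearest other exceeded Dixon's 95% critical value, and chance flags about 1 in 20 groups. The 7 cannot be set against that rate. Some genes examined, such as Nqo1 and Hbb-y, were chosen after their values were seen, and Ttr belongs to the choroid plexus list. WT replicate 2 stood apart for the choroid plexus list, at 6240 summed CPM against 139 to 385 in the other WT libraries, for Ttr, at 5000 CPM against 2.81 to 127, and for Nqo1, at 8.65 CPM against 0.270 to 0.693. WT replicate 6 stood apart for the Cajal-Retzius and cortical hem list, at 2840 summed CPM against 2240 to 2470, for the cerebellum identity list, at 548 against 192 to 320, and for Cul3, at 187 CPM against 206 to 215. Mutant replicate 4 stood apart for Hbb-y, at 27.8 CPM against 0.0661 to 3.32 in the other mutants. Their causes were not tested.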

How the results depend on the processing

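The fall of Cul3 held under all 26 alternatives run (log2 fold change -0.86 to -0.80). The single call held under all of them except RUVs, with 61 genes called at 3 factors (20 higher, 41 lower) and 194 at 5. The count at an unadjusted p under 0.05 was 391, and 949 with no filter, 1297 and 1535 with 3 and 5 RUVs factors, 1558 with the prefix block, 1344 with prefix block and Xist, and 196 (without mutant replicate 3) to 1149 (without WT replicate 2) leaving out 1 library. With the replicate number as a block, which pairs same-numbered embryos, it was 1723 (768 higher, 955 lower), with 1 gene called and -0.82 for Cul3. Deviations of same-numbered WT and mutant embryos correlated over 0.1 in 5 of 6 pairs (-0.257 to 0.578, median 0.335, against -0.0297 for other pairs), while pairs of the same prefix, which include them, had a median of 0.29. Replicate 2 was the exception, and not every library correlated best with its own number, so the number is at most a hint of a pairing. The prefix block called 1 gene, 14 by the likelihood ratio test, 92 with DESeq2, 2 with no filter and 1 to 600 leaving out 1 library. Its count by unadjusted p ran from 945 (without WT replicate 3) to 3692 (without WT replicate 2). Without WT replicate 2 it called 600, 1632 by the likelihood ratio test, 2051 with DESeq2, 932 with RLE scaling, 1 with Xist and 1 to 3522 leaving out 1 further library. For HIP against CX, 0 genes became 1 by the likelihood ratio test and 53 with prefix-by-region terms and WT replicate 2 left out of all regions. The cause of these changes was not tested. Named genes beside Cul3 had 6058 values under the 26 alternatives to the fit with genotype alone. Of these, 5990 kept their side and direction or moved by less than their spread. A further 39 passed the threshold, all with RUVs, 29 moved further and 0 called values changed sign. The further settings of the prefix block are not in that tally. Among them, the block without WT replicate 2 called Top2a and Grm5. With 6 embryos a genotype and a prefix effect on 30.9% of genes, small changes of single genes are poorly resolved here.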

Other observations

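Among gene groups not described above, TEC models, annotated but not yet experimentally supported transcripts, were higher by unadjusted p in 69 of 1026 and lower in 3 with genotype alone (median log2 fold change 0.17), against 1.31% and 0.979% of all genes tested. Their list mean was higher in mutants by 0.40 in S3, 0.07 in S2 and 0.06 in S4. For HIP against CX, 183 of 1297 TEC models had a more positive mutant effect in HIP by unadjusted p and 1 a more negative one, against 359 and 233 of 18637 genes, and 0 passed the FDR. Oligodendrocyte precursor genes had a lower mean in 14 of 17 (median -0.25), with 0 at an unadjusted p under 0.05. Of 11 tested genes that the study predicted as possible off-targets of the guide, 0 passed an unadjusted p of 0.05 in either fit. Of 23 immediate early genes, 1 was lower with genotype alone, Nr4a2, at -0.55 (unadjusted p = 0.0483). Heat shock and unfolded protein genes (25 tested, median -0.01) and genes of hypoxia and glycolysis (29 tested, median 0.03) held 0 members at an unadjusted p under 0.05 with genotype alone.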
